A study of Homo sapiens with 4 samples.

Results

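This account concerns 10 genes that brake mTORC1 or connect it to nutrient supply, out of 18417 genes measured in MiaPaCa2, a human pancreatic carcinoma line, after exposure to LY101-4B, which the series presents as an inhibitor of E2F transcription factors. The genes are the sestrins SESN1, SESN2 and SESN3; DDIT4 (the gene of REDD1) and its paralog DDIT4L; DEPTOR; the Rag GTPase genes RRAGC and RRAGD; FLCN; and TSC1. They were taken by name, and all 10 were found, each with 1 probe set (the group of short probes that the array summarises for a transcript) that carries its symbol alone. The groups were 2 arrays of vehicle-treated cells and 2 of cells treated with 50 µM LY101-4B, each after 24 h, in the same line with no genetic change named in the labels. A treatment text attached to the same samples names LY101-4D at 25 µM; the titles, agent labels and design text give LY101-4B at 50 µM and were followed. Each group is described as 2 biological replicates, all from 1 cell line. Values are deposited log2 RMA values, so a difference of 1 is a 2-fold change.

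mTORC1 is a kinase complex on the lysosome that promotes protein synthesis and restrains autophagy when amino acids, energy and growth factors are plentiful. Amino acids act through the Rag GTPases, which bring the complex to the lysosome under the control of GATOR1, GATOR2 and sensor proteins. Growth factors and stress act through the TSC complex, which switches off the small GTPase Rheb, the direct activator of mTORC1. Sestrins and REDD1 are stress-induced brakes on these inputs, and in pancreatic carcinoma the RAS and PI3K signals upstream are often active. Only transcript levels were measured here, not mTORC1 activity.

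The line and the arrays were checked first. The epithelial keratin genes KRT8, KRT18 and KRT19 had vehicle means of 12.8, 12.9 and 9.22 log2 units, and the mesenchymal gene VIM of 12.6. EPCAM and CDH1, which define most epithelia, gave little signal (3.94 and 4.49), as did the leukocyte marker PTPRC (3.51). The leukocyte markers CD3E and CD14 had vehicle means of 5.06 and 5.63. Of 9 measured markers of leukocytes, endothelium and pancreatic acinar and islet cells, 0 were called by limma (0 at an unadjusted p under 0.05). This speaks of change between the groups, not of absence. The 4 fibroblast-list genes had vehicle means of 9.89 (COL1A2), 6.88 (COL1A1), 6.71 (COL3A1) and 3.46 (DCN). Among them COL1A2 rose by 0.47 log2 units and COL3A1 fell by 0.54, while KRT8 fell by 0.84 and KRT18 by 0.57. The part of these changes in the results below was not tested. Of 21214 probe sets tested on the 4 arrays, limma called 1930 higher and 2236 lower (adjusted p under 0.05). These totals were not steady when 1 vehicle array was left out, and moved less when 1 treated array was left out. Such a fit has 1 array in a group and less data for the error, so whether single arrays drive the totals was not tested.

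Of the 10 genes, 4 rose with LY101-4B (SESN2, DDIT4, RRAGC and RRAGD), 1 fell (DDIT4L) and 5 did not pass (SESN1, SESN3, DEPTOR, FLCN and TSC1). That is 5 of 10 called, where 19.6% of all 18417 genes were called in either direction (8.88% higher and 10.7% lower). The rise of 3 of them reached 2-fold, which 1.66% of all genes did. The 2 groups did not overlap for 8 of the 10, a pattern shown by 58.0% of all genes. The median difference over the 10 was 0.37 log2 units, against 0 over all genes. The genes were chosen with results of these arrays known, so these shares are a description.

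**Figure D1:**
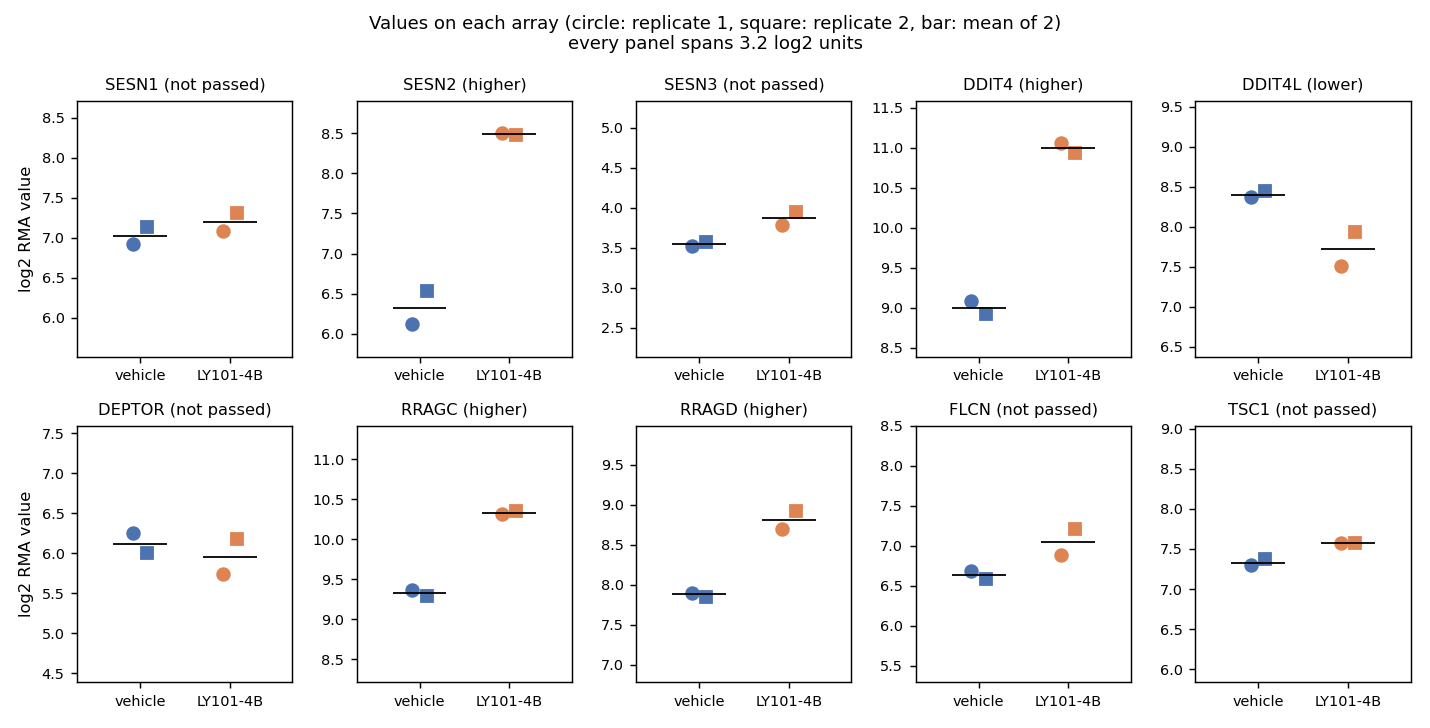
Log2 RMA values (vertical axis) of the 10 genes on each of the 4 arrays, with vehicle in blue and LY101-4B in orange, replicate 1 as a circle, replicate 2 as a square and a bar at the mean of 2; every panel spans the same height. SESN2 (6.12 and 6.53 against 8.50 and 8.48) and DDIT4 (9.09 and 8.92 against 11.06 and 10.94) have the widest gaps, and SESN1 and DEPTOR are the 2 genes whose groups overlap.

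The sestrins bind GATOR2 and so curb the Rag branch, and SESN2 also serves as a leucine sensor. SESN2 read 6.12 and 6.53 in the vehicle arrays and 8.50 and 8.48 with LY101-4B. The vehicle arrays differed by 0.41 and the treated arrays by 0.02, both far less than the gap between the groups. The rise was 2.17 ± 0.15 log2 units (SE, n = 2 each; 95% interval 1.81 to 2.54), or 4.51-fold (limma adjusted p 0.000958), and only 25 genes rose more.

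SESN1, a sestrin known as a p53 target, read 6.92 and 7.14 in vehicle and 7.08 and 7.31 with LY101-4B. The groups overlapped, and the difference of 0.17 ± 0.13 (95% interval -0.14 to 0.48) did not pass (limma adjusted p 0.435). SESN3, a sestrin known as a FOXO target, read 3.53 and 3.57 in vehicle and 3.78 and 3.95 with LY101-4B. Its groups did not overlap, yet the difference of 0.32 ± 0.10 (95% interval 0.07 to 0.56) did not pass after adjustment (adjusted p 0.0796). Its vehicle mean was higher than that of 4.3% of probe sets, and no detection calls were at hand to tell whether this signal was above background. The change of SESN2 exceeded that of SESN1 by 2.00 ± 0.15 log2 units and that of SESN3 by 1.86 ± 0.21. For both pairs the within-array differences of the 2 groups did not overlap (exact 2-sided permutation p = 0.333, the smallest that 2 arrays against 2 allow; 0.4 after adjustment over the 6 gene pairs compared in all).

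REDD1, the product of DDIT4, is induced by hypoxia, energy loss and endoplasmic reticulum stress and frees the TSC complex to act. DDIT4 read 9.09 and 8.92 in vehicle and 11.06 and 10.94 with LY101-4B. Every treated array lay well above both vehicle arrays, and replicates differed by at most 0.17. The rise was 2.00 ± 0.10 log2 units (95% interval 1.74 to 2.26), or 4.00-fold (limma adjusted p 0.000601), exceeded by 36 genes.

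DDIT4L, which encodes the related protein REDD2, went the other way. It read 8.37 and 8.44 in vehicle and 7.51 and 7.93 with LY101-4B. Both treated arrays lay below both vehicle arrays, but replicate 1 fell by 0.90 from the vehicle mean and replicate 2 by 0.47. The fall was 0.68 log2 units with an SE of 0.15, or 1.60-fold (limma adjusted p 0.0303). The call was lost without vehicle replicate 1 (difference -0.72) and without vehicle replicate 2 (-0.65). Each of these fits has 1 vehicle array and less data for the error. The call was also lost when all rows of the table were tested (limma adjusted p 0.0928). The changes of DDIT4 and DDIT4L differed by 2.68 ± 0.30 log2 units, with no overlap between groups (exact 2-sided permutation p = 0.333, or 0.4 adjusted over the 6 pairs).

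**Figure D2:**
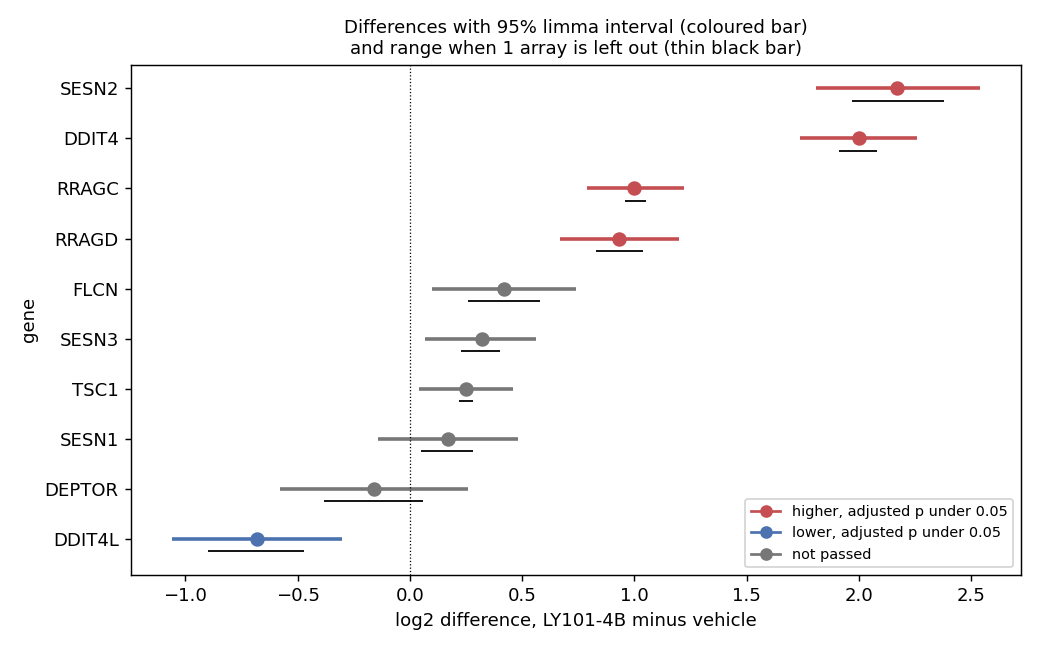
Log2 difference, LY101-4B minus vehicle (horizontal axis), for the 10 genes in order of size; dots are limma estimates from 2 arrays a group, coloured bars their 95% intervals with no adjustment for multiple tests, and thin black bars the range when 1 array was left out. SESN2 and DDIT4 lie near 2, RRAGC and RRAGD near 1, and DDIT4L at -0.68, while the range of DEPTOR spans 0.

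The Rag GTPases work as pairs of RagA or RagB with RagC or RagD, and folliculin, the FLCN product, acts on RagC and RagD with its partners FNIP1 and FNIP2. RRAGC read 9.37 and 9.29 in vehicle and 10.32 and 10.35 with LY101-4B. The groups were far apart and replicates were within 0.09 of each other, giving a rise of 1.00 ± 0.09 log2 units (95% interval 0.79 to 1.22), or 2.00-fold (limma adjusted p 0.00182). RRAGD read 7.90 and 7.85 in vehicle and 8.70 and 8.92 with LY101-4B. It rose by 0.93 ± 0.11 (95% interval 0.67 to 1.20), or 1.91-fold (adjusted p 0.00363), with the treated arrays 0.22 apart.

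The changes of RRAGC and RRAGD differed by 0.07 ± 0.09 log2 units, and here the arrays overlapped (exact permutation p = 1). Their partner genes moved less. RRAGB, which encodes RagB, rose by 0.43 ± 0.10 log2 units (limma adjusted p 0.0314), and RRAGA, which encodes RagA and was named after its values were seen, had a difference of 0.19 ± 0.09 (adjusted p 0.219). RRAGC exceeded RRAGA in its change by 0.82 ± 0.10, and RRAGD exceeded RRAGB by 0.50 ± 0.07. Neither pair overlapped between groups (exact 2-sided permutation p = 0.333, or 0.4 adjusted over the 6 pairs).

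FLCN read 6.68 and 6.59 in vehicle and 6.89 and 7.21 with LY101-4B. Both treated arrays were higher, but they stood 0.32 apart, and the difference of 0.42 ± 0.13 (95% interval 0.10 to 0.74) did not pass (limma adjusted p 0.0752). It passed without LY101-4B replicate 1 (difference 0.58, adjusted p 0.03) and among the brighter 50% of probe sets (0.0287).

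DEPTOR, an inhibitory subunit of both mTOR complexes, read 6.25 and 6.00 in vehicle and 5.74 and 6.18 with LY101-4B. The groups overlapped, and the difference of -0.16 ± 0.17 (95% interval -0.58 to 0.26; limma adjusted p 0.59) turned to 0.06 without LY101-4B replicate 1. TSC1, which encodes hamartin, the stabilising subunit of the TSC complex, read 7.30 and 7.37 in vehicle and 7.58 on both treated arrays. The groups did not overlap, but the difference was small, 0.25 ± 0.09 (95% interval 0.04 to 0.46), and did not pass (adjusted p 0.105); it passed among the brighter 50% of probe sets (0.0337).

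Promoter windows are shown for the called genes that the RefSeq table (GRCh38.p14) holds, so that the sequence can be set beside the change. Each runs from 250 bases before the transcription start to 50 after it, 5′ to 3′ on the gene's strand. The table matched 8 of the 10 genes, without RRAGD and DEPTOR. Capitals mark every match to a motif that was searched on both strands. The SESN2 window is chr1:28259268-28259567 on the plus strand, that of DDIT4 chr10:72273674-72273973 on the plus strand, that of RRAGC chr1:38859723-38860022 on the minus strand and that of DDIT4L chr4:100190419-100190718 on the minus strand.
SESN2: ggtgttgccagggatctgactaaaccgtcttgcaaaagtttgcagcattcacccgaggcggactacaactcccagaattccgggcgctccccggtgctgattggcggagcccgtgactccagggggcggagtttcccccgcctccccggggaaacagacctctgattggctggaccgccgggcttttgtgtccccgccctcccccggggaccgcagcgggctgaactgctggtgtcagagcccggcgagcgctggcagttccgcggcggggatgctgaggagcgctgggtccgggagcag
DDIT4: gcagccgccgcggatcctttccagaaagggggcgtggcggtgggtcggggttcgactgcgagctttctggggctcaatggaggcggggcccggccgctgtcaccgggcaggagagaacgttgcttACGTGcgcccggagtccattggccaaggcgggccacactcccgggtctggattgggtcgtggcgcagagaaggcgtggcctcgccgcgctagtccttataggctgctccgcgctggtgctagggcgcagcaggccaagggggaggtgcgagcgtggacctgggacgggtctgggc
RRAGC: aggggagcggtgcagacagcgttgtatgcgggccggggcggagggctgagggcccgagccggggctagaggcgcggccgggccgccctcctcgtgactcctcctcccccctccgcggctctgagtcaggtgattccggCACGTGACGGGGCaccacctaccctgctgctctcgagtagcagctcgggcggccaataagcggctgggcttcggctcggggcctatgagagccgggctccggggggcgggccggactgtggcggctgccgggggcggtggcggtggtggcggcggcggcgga
DDIT4L: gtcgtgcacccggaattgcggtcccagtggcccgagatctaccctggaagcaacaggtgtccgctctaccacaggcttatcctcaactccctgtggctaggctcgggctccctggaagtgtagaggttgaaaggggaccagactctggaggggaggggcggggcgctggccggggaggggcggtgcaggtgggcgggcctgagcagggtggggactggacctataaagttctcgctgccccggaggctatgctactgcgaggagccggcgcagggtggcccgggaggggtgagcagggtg

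The words searched were TGATGNAA for CARE, the element read by ATF4 and C/EBP factors; TCACGTGA for CLEAR, read by TFEB and its relatives; the E-box CACGTG; the endoplasmic reticulum stress element, by its usual consensus; TGACNNNGC for the antioxidant element; TTTGGCGC, TTTCCCGC, TTTGCCGC and TTTCGCGC for E2F; and ACGTG, the core of the hypoxia element, which was added after the windows had been read. RRAGC held the E-box at -112 to -107 from the start. The hypoxia core lies inside that E-box on both strands, and the antioxidant word overlaps its end at -108 to -100. DDIT4 held the hypoxia core at -125 to -121. The SESN2 and DDIT4L windows held none of the words. Of the 8 genes with a window, 1 held the E-box, 2 the antioxidant word (RRAGC and 1 of the 3 SESN1 windows), 2 the hypoxia core and 0 the CARE, CLEAR, endoplasmic reticulum stress or E2F words. Among all 35116 windows the shares were 7.26% for the E-box, 13.3% for the antioxidant word, 21.4% for the hypoxia core, 3.62% for CARE, 0.98% for CLEAR, 0.0769% for the endoplasmic reticulum stress element and 3.31% for E2F.

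The other genes of the pathway were read from lists. Each count is to be set beside the shares over all 18417 genes, 8.88% called higher and 10.7% lower. In the branch that carries amino acid signals to the Rags, 3 of 5 measured sensor genes rose and 0 fell by limma (0 also at an unadjusted p under 0.05), with a median of 0.48 log2 units against 0 over all genes. CASTOR1, the cytosolic arginine sensor, read 7.06 and 7.21 in vehicle and 7.66 and 8.07 with LY101-4B, a rise of 0.73 ± 0.15 (limma adjusted p 0.025). SAMTOR, the S-adenosylmethionine sensor, rose by 0.56 ± 0.10 (adjusted p 0.017), and SLC38A9, the lysosomal arginine transporter, by 0.48 ± 0.12 (adjusted p 0.0461). Each of the 3 lost its call when either vehicle array was left out (0.0648 to 0.211), and SLC38A9 also without LY101-4B replicate 2 (0.0767).

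In GATOR2, on which sestrins act, 2 of 5 genes rose and 1 fell (8.88% and 10.7% of all genes). SEC13, also a coat protein of vesicles leaving the endoplasmic reticulum, rose by 0.62 ± 0.08 log2 units and WDR59 by 0.42 ± 0.09, while SEH1L, also a nuclear pore subunit, fell by 0.54. With vehicle replicate 1 left out SEC13 no longer passed (adjusted p 0.0609). SEH1L no longer passed with either vehicle array left out (0.0682 and 0.115), and WDR59 with any one of the 4 arrays left out (0.0545 to 0.207). In GATOR1 and its lysosomal anchor KICSTOR, 0 of 6 rose by limma (0 at an unadjusted p under 0.05) and 1 fell, the KICSTOR gene ITFG2, by 0.37; this call was lost without any one of the arrays (0.0675 to 0.26).

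Around the Rags, 2 of 8 measured genes of the Ragulator anchor, the other Rags and the folliculin partners rose and 1 fell. The shares over all genes were 8.88% and 10.7%. FNIP1 rose by 0.55 ± 0.11 log2 units (limma adjusted p 0.0193) beside RRAGB, and the Ragulator gene LAMTOR2 fell by 0.34 (adjusted p 0.049). The call of FNIP1 was lost without vehicle replicate 1 (0.139) or LY101-4B replicate 2 (0.0587), that of RRAGB without either vehicle array or LY101-4B replicate 2 (0.0679 to 0.204), and that of LAMTOR2 without any one of the arrays (0.0845 to 0.324).

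Of 10 measured subunit and assembly genes of the mTOR kinase complexes, 0 rose by limma (2 at an unadjusted p under 0.05) and 2 fell, with a median of -0.04; 19.6% of all genes were called in either direction. TTI1, which helps fold the mTOR kinase and its relatives, read 8.18 and 8.15 in vehicle and 7.30 and 7.42 with LY101-4B, a fall of 0.81 (limma adjusted p 0.00346) that kept its call without any one array. MAPKAP1, an mTORC2 subunit gene, fell by 0.44 (adjusted p 0.0182; 0.147 and 0.127 without either vehicle array). Of the other TSC and Rheb genes 0 of 3 passed by limma (0 at an unadjusted p under 0.05): TSC2, the catalytic partner of TSC1, had a difference of 0.17 ± 0.08 (adjusted p 0.249), and RHEBL1, a Rheb-like gene, of -0.06 ± 0.09 (adjusted p 0.713).

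Among 11 genes of AMPK, the energy sensor that opposes mTORC1, and its kinases, 3 rose and 1 fell (8.88% and 10.7% of all genes). The subunit genes PRKAB2 (0.64 ± 0.12 log2 units), PRKAA2 (0.50 ± 0.13) and PRKAG1 (0.33 ± 0.09) rose, and PRKAG2 fell by 0.39. PRKAB2 lost its call when vehicle replicate 1 (adjusted p 0.113) or LY101-4B replicate 2 (0.0594) was left out. PRKAA2 and PRKAG2 each kept their call without 1 of the 4 arrays and lost it without the other 3 (highest adjusted p 0.243 and 0.195), and PRKAG1 lost it without any one (0.0697 to 0.293).

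In the insulin, PI3K and AKT arm 2 of 13 measured genes rose and 3 fell, where 8.88% of all genes rose and 10.7% fell. TRIB3, a stress-induced pseudokinase gene whose product binds AKT, read 7.10 and 6.82 in vehicle and 9.15 and 9.36 with LY101-4B. It rose by 2.29 ± 0.13 log2 units or 4.91-fold (limma adjusted p 0.000718). GRB10, an adaptor that dampens insulin receptor signalling, read 6.68 and 6.48 in vehicle and 8.22 and 8.51 with LY101-4B, a rise of 1.79 ± 0.13 or 3.45-fold (adjusted p 0.00126). Both groups stood apart for each gene, and both calls held without any one array. The 3 that fell were the kinase genes AKT1 (by 0.50), AKT2 (by 0.48) and PIK3CB (by 0.38; named after its values were seen). AKT1 no longer passed with either vehicle array left out (0.109 and 0.0939), while AKT2 and PIK3CB kept it without 1 of the 4 arrays (highest adjusted p 0.162 and 0.236). The list median was -0.21.

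Downstream of mTORC1, 7 of 16 substrate and effector genes rose and 0 fell by limma (3 at an unadjusted p under 0.05). Their median was 0.14, and over all genes 8.88% rose and 10.7% fell. LPIN1, a phosphatidate phosphatase gene, read 9.74 and 9.75 in vehicle and 10.67 on both treated arrays, a rise of 0.92 ± 0.08 log2 units (limma adjusted p 0.00195) that held without any one array. ATG13, of the autophagy-initiating kinase complex, rose by 0.70 ± 0.10, MITF by 0.67 ± 0.11 and PDCD4, a translation inhibitor gene, by 0.66 ± 0.10. TFE3 (0.65 ± 0.09), EIF4EBP1 (0.59 ± 0.11) and TFEB (0.38 ± 0.09), named after their values were seen, complete the 7. The signal of MITF was low, with a vehicle mean of 4.66, higher than that of 18.3% of probe sets. MITF, TFE3 and TFEB are related transcription factors that are kept out of the nucleus when mTORC1 and the RagC or RagD GTPases are active. Each of these calls other than LPIN1 was lost without at least 1 vehicle array (highest adjusted p 0.054 for ATG13, 0.0711 for MITF, 0.0566 for PDCD4, 0.0583 for TFE3, 0.111 for EIF4EBP1 and 0.211 for TFEB).

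**Figure D3:**
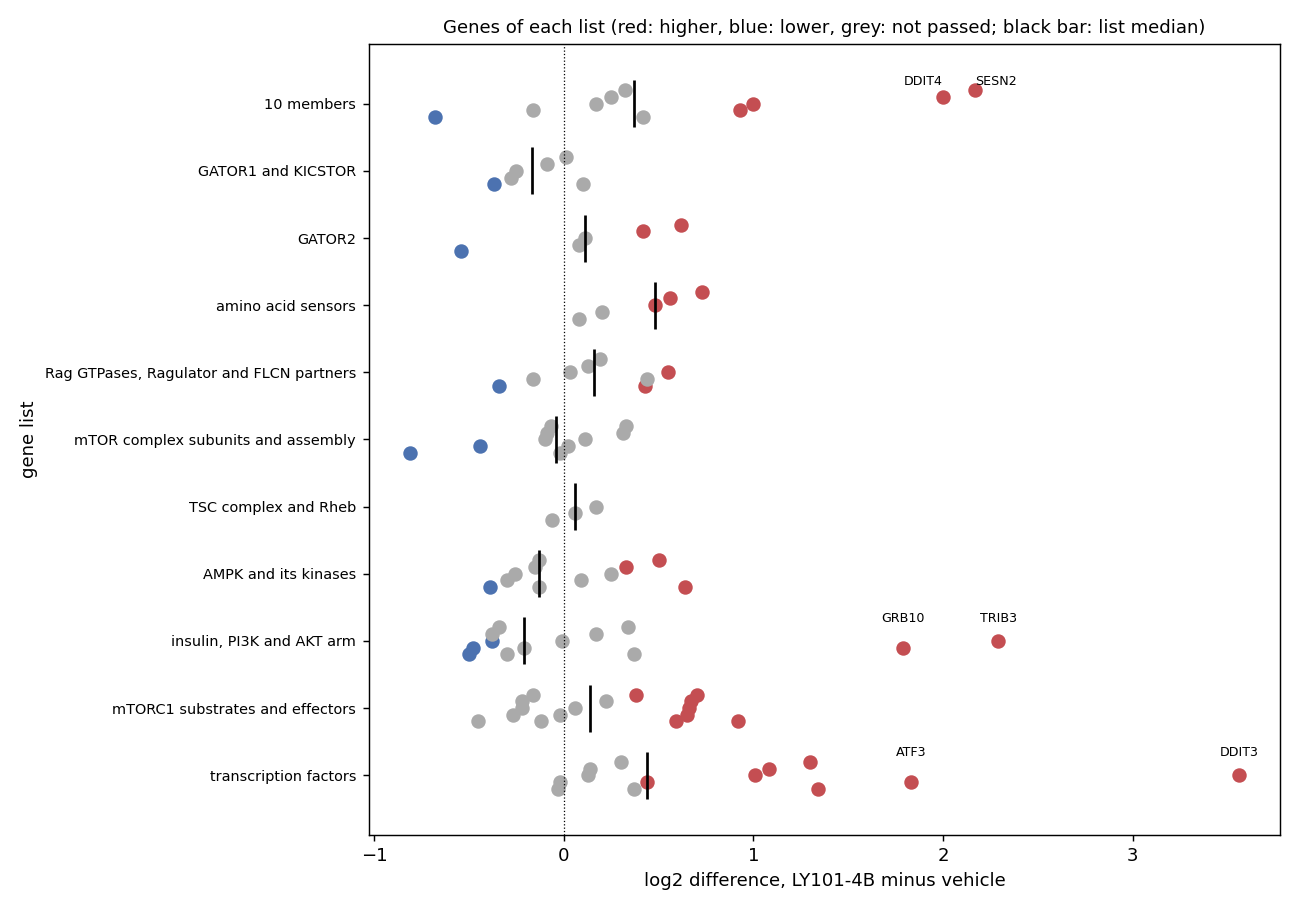
Log2 difference, LY101-4B minus vehicle (horizontal axis), for each measured gene of the 10 members and of 10 further lists (vertical axis); red dots rose and blue dots fell at a limma adjusted p under 0.05, grey dots did not pass, and black bars are list medians. SESN2, DDIT4, TRIB3, GRB10, ATF3 and DDIT3 are the genes beyond 1.5, and no gene of the mTOR complex list is red.

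Over all genes 8.88% rose and 10.7% fell. Of 13 measured transcription factor genes known to act on sestrin or REDD1 genes, 7 rose and 0 fell by limma (0 at an unadjusted p under 0.05), with a median of 0.44. These were DDIT3, the gene of the stress factor CHOP (3.56 ± 0.09 log2 units), ATF3 (1.83 ± 0.09), CEBPB (1.34 ± 0.09) and XBP1, a factor of the unfolded protein response (1.30 ± 0.09), and, named after their values were seen, ATF6 (1.08 ± 0.08), ATF4 (1.01 ± 0.08) and NFE2L2, which encodes NRF2 (0.44 ± 0.09). NFE2L2 kept its call without 1 of the 4 arrays (highest adjusted p 0.158), and the other 6 kept theirs without any one. The hypoxia factor gene HIF1A (-0.02 ± 0.12, adjusted p 0.944) and the FOXO genes FOXO1 (0.30 ± 0.18, adjusted p 0.33), FOXO3 (0.14 ± 0.17, adjusted p 0.638) and FOXO4 (0.37 ± 0.10, adjusted p 0.0596) did not pass and were likewise named with their values known. FOXO1 ran from 0.03 to 0.58 log2 units without single arrays. FOXO4 passed among the brighter 50% of probe sets (limma adjusted p 0.0195), but that cut used the treated arrays, where FOXO4 read higher. Its vehicle mean was higher than that of 49.8% of probe sets, so this pass was not independent of its difference. Transcript levels do not give the activity of these factors, and their part in the rise of SESN2 and DDIT4 was not tested.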

How the data were processed

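The authors deposited log2 expression values per probe set from Human Gene 1.0 ST arrays, credited to RMA in the submitters' processing notes; RMA corrects background, quantile-normalises and summarises probes, so a change is read against most other probe sets and is understated at low signal. The software version and any filter are not stated in the labels. Column medians were 5.88 to 5.97. The labels' protocols name a FlashTag Biotin HSR kit; whether that entry fits these arrays is uncertain. Of 33297 rows, 21214 with at least 1 gene symbol were fitted with limma 3.58.1 in R 4.3.3 (lmFit, eBayes; treatment as the only term; 2 residual and 3.75 prior degrees of freedom), with 2-sided p-values adjusted by Benjamini-Hochberg over all of them and a threshold of 0.05. The brightest of a gene's single-symbol probe sets stood for it. SE in differences is limma's moderated SE, except between gene pairs, where it is the plain SE of within-array differences. Array number limits the precision. The fit was tested on simulated data.

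The members and lists were chosen with earlier results of these data known. Named genes are all members and, per list, the called genes with the greatest change (at most 4), or, in a list with no call, the 2 genes of lowest p; others are marked. Alternatives were median centring, cyclic loess, an intensity trend, a robust prior, other sets of rows, a replicate block, leaving out each array and, for members, the mean of a gene's probe sets, which equals the main value because each has 1. Genes on the lists without a single-symbol probe set were not analysed here. Neither detection calls nor scanner files entered the work, and no batch is named in the labels. A lower level cannot be told apart from fewer cells that express the gene.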

Additional observations from a re-analysis of the deposited data

How the results depend on the processing

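SESN2, DDIT4, RRAGC and RRAGD kept their rise under all 13 alternatives run for each, with differences of 1.97 to 2.38, 1.91 to 2.08, 0.94 to 1.08 and 0.83 to 1.04 log2 units. Their calls held in each alternative that kept all 4 arrays, with limma adjusted p of 0.0119, 0.0093, 0.0158 and 0.0232 over all rows. The mean of a gene's probe sets could not differ from the main value. The vehicle mean of SESN2 was higher than that of 47.8% of probe sets, and its treated arrays helped bring it into the brighter 50%. Neither of these alternatives therefore tests the call of SESN2. DDIT4L stayed lower throughout but lost its call over all rows of the table (-0.68) and without either vehicle array; leaving out single arrays gave -0.90 to -0.47. FLCN (0.26 to 0.58 without single arrays) and TSC1 passed among the brighter 50% of probe sets (0.42 and 0.25). DEPTOR ran from -0.38 to 0.06 without single arrays and changed sign without LY101-4B replicate 1 (0.06). Leaving out single arrays moved the count of members called lower between 0 and 1, and all rows gave 0; the count called higher was 6 among the brighter 50% of probe sets, 5 without LY101-4B replicate 1 and 4 in the other alternatives. Without single arrays 755 to 1899 probe sets rose and 811 to 2467 fell over the whole array, and 1162 and 1271 over all rows. The cause of these changes was not tested.

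The counts on the other lists were less steady. Without single arrays the ranges were 0 to 0 lower for GATOR1 and KICSTOR; 0 to 1 higher and 0 to 1 lower for GATOR2; 0 to 3 higher for sensors; 0 to 3 higher and 0 to 0 lower around the Rags; 0 to 1 higher and 1 to 2 lower for mTOR complexes; 0 to 2 higher and 0 to 1 lower for AMPK; 0 to 4 lower for the insulin arm; and 1 to 7 higher and 0 to 1 lower for mTORC1 effectors. Over all rows, 0 were called lower in GATOR1 and KICSTOR, 1 higher and 0 lower in GATOR2, 0 higher among sensors, 0 higher and 0 lower around the Rags, 1 lower in mTOR complexes, 0 higher and 0 lower in AMPK and 1 lower in the insulin arm. Median centring gave 1 higher in GATOR2, 1 higher around the Rags, 1 higher and 2 lower in AMPK and 6 lower in the insulin arm. An intensity trend gave 2 lower in AMPK, 5 in the insulin arm and 1 among effectors, and the brighter 50% gave 2, 5 and 2, with 1 higher in mTOR complexes. A robust prior gave 0 lower around the Rags. Of the 35 called genes named outside the 10, 10 kept their call without any one array and 25 lost it at least once; 19 lost it over all rows, 6 under median centring (among them WDR59, SLC38A9, RRAGB, PRKAA2 and PRKAG1), 2 under cyclic loess, 1 with a robust prior and 0 with an intensity trend or single-symbol probe sets. HIF1A, not called, changed sign under cyclic loess (0.07) and ran from -0.15 to 0.12 without single arrays, and FOXO3 from -0.11 to 0.39.

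The replicate numbers in the titles name no shared source, and same-numbered arrays deviated together at r = 0.116, which with 2 pairs does not settle a pairing. With the replicate block 2024 probe sets rose and 2312 fell, 4 and 1 of the 10 genes were called as before (DDIT4L at an adjusted p of 0.0155), and the list around the Rags had 0 lower; LAMTOR2 (0.0578) and PRKAG1 (0.0576) were the named genes that lost a call. With 2 arrays a group and no detection calls, small differences and dim genes such as SESN3 are the least certain.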
